A study of Mus musculus with 6 samples.

Results

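Cells with RNA of the anterior second heart field and pharyngeal mesoderm were picked out of a single-cell RNA data set of the mouse embryonic heart region. A cell barcode was taken as a member when it held at least 1 UMI of Isl1, at least 1 UMI of Tbx1 and a sum of at least 4 UMIs over Isl1, Fgf10 and Tbx1. A UMI (unique molecular identifier) marks 1 captured RNA molecule. Members also had to stay below 2 UMIs of Tbx5, 5 of Tnnt2, 3 of Epcam, 3 of Dlx1 and Dlx2 together, and 2 of Myf5, Myod1 and Musk together. These limits are set against posterior heart field, beating heart muscle, epithelium, neural crest of the arches and committed muscle, and do not remove all such RNA: 99 members held a Tbx5 UMI. Of 53362 barcodes, 35962 had at least 2500 detected genes and at most 10% mitochondrial UMIs, and 2461 of these were members (6.84%, exact binomial 95% interval 6.58 to 7.11). The other 33501 passing barcodes served as the comparison.

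The tissue was the cardiogenic region of C57BL/6 wild type embryos at stage E10.5. Per the labels, 3 samples came from dams pretreated with vehicle and with normal glycemia. The other 3 came from dams made hyperglycemic with STZ (streptozotocin), which destroys the insulin-producing cells of the pancreas. All dams were mated with males of normal glycemia, so both groups share strain, stage and paternal background, and the labels do not say how many embryos were pooled in a sample. The barcodes fall into 6 libraries, numbered 1 to 6 by the suffix of the barcode, and no file used here ties a suffix to a sample. STZ and vehicle were therefore not compared, no test was run, and values are given for all libraries together and for each library. Intervals cover counting error only.

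The second heart field is a pool of progenitors in pharyngeal and splanchnic mesoderm that adds cells to the growing heart tube. Its anterior part feeds the outflow tract and right ventricle, and its posterior part feeds the atria and the venous pole. Clonal and lineage studies place the anterior field in a common cardiopharyngeal lineage with the muscles of the head and branchial arches. Isl1 encodes a LIM-homeodomain factor of the progenitors, Tbx1 a T-box factor of pharyngeal mesoderm and endoderm, and Fgf10 a secreted growth factor of the anterior field. Progenitors that enter the heart switch on Nkx2-5 and sarcomere genes, while those that enter the arches switch on Tcf21, Msc and Lhx2 before the myogenic factors Myf5 and Myod1.

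Isl1 lies on mouse chromosome 13 (mm10, 116298281 to 116309689, minus strand), Fgf10 on the same chromosome (118669791 to 118792115, plus strand) and Tbx1 on chromosome 16 (18580979 to 18590671, minus strand). Levels of the 11 genes in the rule were fixed by the choice of cells and are given as a description. Levels are counts per 1000000 UMIs (CPM) summed over cells. Isl1 was at 232 CPM in members and 55.0 CPM in the other barcodes, and over the 6 libraries the members ranged from 201 to 292 CPM with a median of 224. Tbx1 was at 127 and 21.4 CPM, with members at 111 to 143 CPM over libraries. Fgf10 was at 50.9 and 9.04 CPM, and 46.6% of members had an Fgf10 UMI. The median member held 5 Isl1 UMIs, 3 Tbx1 UMIs and 0 Fgf10 UMIs.

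The lower limit on the summed UMIs left 189 members exactly at 4 UMIs, and 194 barcodes at 3 UMIs met every other condition and stayed outside. Of 5093 barcodes that met the Isl1, Tbx1 and sum conditions, 2632 were kept out by the negative limits. Epcam alone kept out 1836 of them, myogenic genes alone 232, Tbx5 alone 138, Tnnt2 alone 128 and Dlx genes alone 86. As a measure of free RNA, 1396 barcodes with at least 30% hemoglobin UMIs were examined, since red blood cells should lack these genes. Thinned to 5000 UMIs per cell, 0.430% of them held an Isl1 UMI and 0.358% a Tbx1 UMI, against 18.1% and 8.83% of the other passing barcodes. The shares of members, 62.2% and 47.6%, were raised by the rule itself and are a description. Before thinning, at a median of 64808.5 UMIs against 29221 in members, the shares in hemoglobin-rich barcodes were 3.15% and 2.58%. Of the hemoglobin-rich barcodes 4 were members.

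Libraries 1 to 6 held 475, 456, 239, 436, 440 and 415 members. The shares of passing barcodes were 7.37%, 7.60%, 4.87%, 7.68%, 6.17% and 7.15% in the same order. Library 3 was the lowest, with an interval of 4.29 to 5.51% that overlapped none of the other 5. Members had a median of 6088 detected genes, against 6211 in the other barcodes at a median of 33118 UMIs, and the median mitochondrial shares were 2.41% and 2.39%. Of the members, 123 carried a barcode sequence that also occurred in another library, and 0 of these recurred as a member there. Scores from simulated doublets placed 97 members (3.94%) and 1746 of all passing barcodes (4.86%) above the threshold, and none was removed. The threshold was set in each library to take 0.8% per 1000 passing barcodes. The share of all passing barcodes was thus fixed by library size and is not a measured doublet rate.

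**Figure D1:**
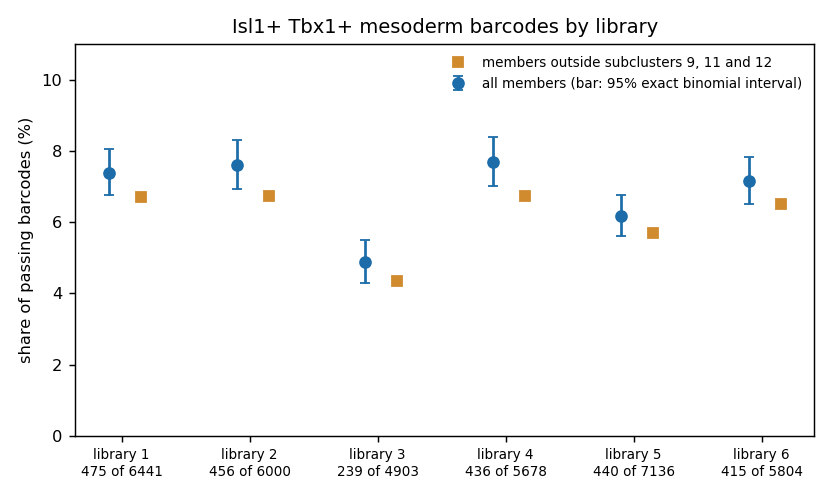
Share of passing barcodes that were members in each of the 6 libraries (y axis, percent), with exact binomial 95% intervals. Circles are all members and squares leave out the 3 subclusters numbered 9, 11 and 12. Library 3 sits lowest at 4.87% and library 4 highest at 7.68%.

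Outside the rule, Lhx2, Tlx1, Ntng1 and Slit1 were among the genes with the highest ratios in members, and light chain and troponin genes of heart muscle among those with the lowest. Of 9175 genes at 10 CPM or more in either set, 203 (2.21%) were at least 2-fold higher in members and 266 (2.90%) at least 2-fold lower, and 197 and 263 of these had the same direction in all 6 libraries. The median log2 ratio over all genes was 0.10, and 0.04 with hemoglobin-rich barcodes left out of the comparison. No replicate error stands behind these ratios. The members were chosen by RNA from the same cells, so genes that go with Isl1 or Tbx1 had to differ, and the counts describe the cells that the rule took. The leading genes named next were the extremes among genes with 1 direction in every library and at 20 CPM or more. That limit was read in members for the higher genes and in the others for the lower. Many reached 10 CPM in only 1 of the sets, so their direction and the gap between their ranges follow from that choice and are a description.

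Lhx2, a LIM-homeodomain factor of the branchial arch muscle progenitors, had the highest ratio. It was at 65.5, 30.3, 66.4, 18.7, 29.7 and 26.8 CPM in members of libraries 1 to 6, and at 2.58 to 3.72 CPM in the other barcodes. All libraries summed gave 37.8 against 3.22 CPM, a ratio of 11.8 (11.2 to 12.3). Tlx1, a homeobox factor known for its part in spleen formation, was at 69.2, 90.5 and 167 CPM in members and at 7.82 to 16.8 CPM in the others, a ratio of 8.48. For both genes every library of members lay above every library of the other barcodes.

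Ntng1, a netrin relative tethered to the membrane, was at 219 to 309 CPM in members and 24.4 to 30.5 CPM in the others (ratio 9.82). Slit1, a secreted guidance ligand, was at 19.9 to 26.6 against 2.14 to 3.17 CPM (ratio 9.47). Cntn1, a contactin, was at a ratio of 9.08. Sema6d, a membrane semaphorin, was at 123 to 141 CPM in members, a narrow range over libraries, against 16.9 to 27.4 CPM (ratio 5.69). Ntrk2, the receptor of the growth factor BDNF, stood at 42.6 against 7.94 CPM. None of these ranges of members overlapped that of the other barcodes.

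Grem1, a BMP antagonist, was at 17.1 to 27.2 CPM in members and 2.33 to 4.90 CPM in the others (ratio 5.80). Chrdl1, also a BMP antagonist, was at 24.7 against 2.88 CPM. Pgf, a ligand of the VEGF receptor family, was at 45.0 to 62.5 against 7.96 to 11.7 CPM (ratio 6.08). Both BMP antagonists passed the minimum through members alone. Moxd1, Kazald1, Lrrn1, Shisa6, St6galnac5, Cpne4, Scn3a and Plcxd3 were also among the 20 leading genes, at ratios of 5.98 (Plcxd3) to 11 (Moxd1).

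**Figure D2:**
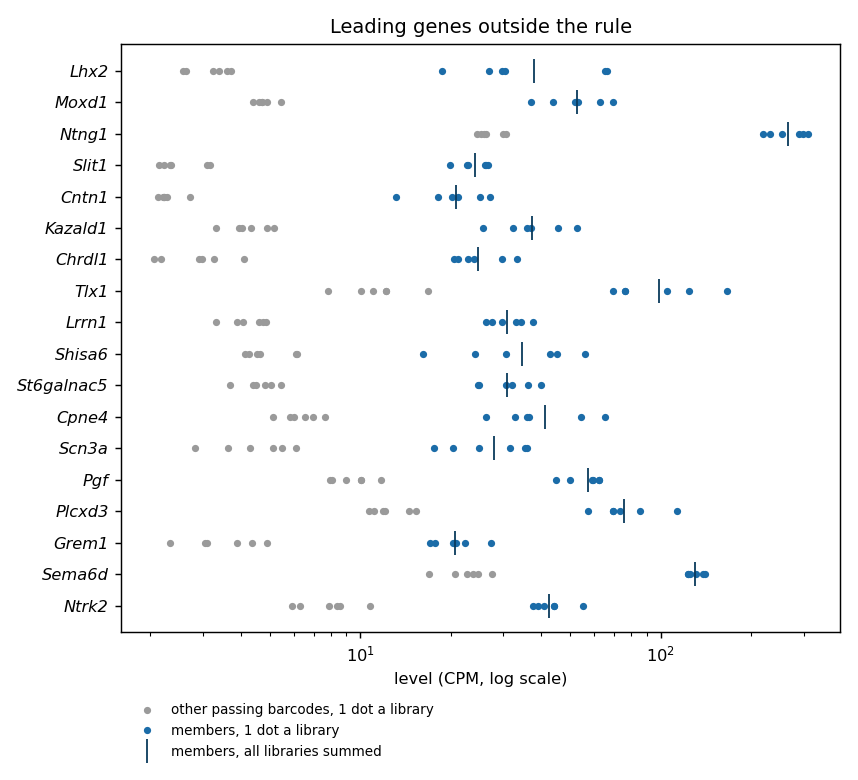
Level (x axis, CPM, log scale) of leading genes outside the rule, 1 dot per library, for members (blue) and other passing barcodes (grey), with a bar at the members' summed value. The dots of the 2 sets are apart for each gene, from Lhx2 (37.8 against 3.22 CPM summed) to Ntrk2 (42.6 against 7.94 CPM).

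At the low end stood genes of working heart muscle and 1 epithelial gene. Cox6a2, a mitochondrial subunit of striated muscle, was at 0.398 CPM in members and 61.1 CPM in the others, and Myl2, the ventricular light chain, at 1.97 against 238 CPM. Nppa, an atrial peptide gene, was at 0.874 against 98.1 CPM, and Myl7, the atrial light chain, at 21.3 against 1590 CPM. Cldn6, a tight junction gene of embryonic epithelium, was at 0.257 against 24.4 CPM. Myl3, Csrp3, Myl1, Myl4 and Tnnc1 completed the 10 lowest, at 73.4-fold (Tnnc1) to 110-fold (Myl3) lower levels in members. Of the 10, Myl7 and Myl4 were above 10 CPM in members, and the others passed the minimum through the other barcodes alone. The rule itself takes out cells with Tnnt2 or Epcam.

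Promoter windows of the 20 leading genes were searched for 3 short motifs, as a description of sequence the rule did not use. RefSeq windows on GRCm38.p6, 250 bases before to 50 after a start, matched 13 of the 20 genes in 20 windows. The motifs were AGGTGTGA (a T-box half-site), CTAATG (a core reported for Isl1) and GTAAACA (a forkhead site), read on both strands. CTAATG was found in 2 of the 20 windows (10.0%), against 7.36% of 32851 windows of all genes. AGGTGTGA and GTAAACA were found in 0 of the 20, against 1.28% and 3.65% of all windows. The 2 windows with a match are shown 5′ to 3′, with CTAATG in capitals, because they hold the matches found. The Ntrk2 window is chr13:58806319-58806618 on the plus strand and the Pgf window chr12:85177264-85177563 on the minus strand.
Ntrk2: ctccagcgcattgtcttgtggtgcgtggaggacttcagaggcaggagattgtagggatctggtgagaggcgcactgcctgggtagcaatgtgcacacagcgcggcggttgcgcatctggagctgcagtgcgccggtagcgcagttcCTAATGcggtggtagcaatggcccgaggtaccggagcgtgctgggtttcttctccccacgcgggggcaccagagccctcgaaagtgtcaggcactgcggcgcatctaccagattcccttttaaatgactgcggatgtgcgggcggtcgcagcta
Pgf: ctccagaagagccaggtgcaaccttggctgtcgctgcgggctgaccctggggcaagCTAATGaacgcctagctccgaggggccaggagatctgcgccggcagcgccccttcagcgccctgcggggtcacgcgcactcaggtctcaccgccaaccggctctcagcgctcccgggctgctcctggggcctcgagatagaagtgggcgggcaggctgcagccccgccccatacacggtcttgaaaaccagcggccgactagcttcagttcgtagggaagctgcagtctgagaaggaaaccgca

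Of the listed transcription factors of the cardiopharyngeal lineage, 29 of 35 tested had a ratio above 1, and 24 were higher in members in all 6 libraries. Of the 38 on the list 35 passed the 10 CPM minimum, of which 12 were at least 2-fold higher (34.3%, beside 2.21% of all genes), 3 at least 2-fold lower (8.57%, beside 2.90% of all genes) and 20 within 2-fold, with a median log2 ratio of 0.64 against 0.10 for all genes. The other 3 were below the minimum in both sets, Foxf2 and Prdm1 among them. A gene that passed the minimum through its level in 1 set alone could differ only in that direction, so the counts for this and the following lists are a description. Of the 12 higher factors 3 passed through members alone, and of the 3 lower ones 2 passed through the other barcodes alone.

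Tcf21, a bHLH factor of branchiomeric muscle progenitors and of the epicardium, was at 88.8, 124 and 128 CPM in the lowest, median and highest library of members and at 25.1 to 40.5 CPM in the others (114 against 30.3 CPM summed, ratio 3.78). After thinning, 40.3% of members and 9.62% of the others held a Tcf21 UMI. Msc, its bHLH partner, was at 9.13 to 24.3 against 1.01 to 10.6 CPM (ratio 2.90), and here the ranges overlapped although members were higher in 6 of 6 libraries.

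The Eya proteins are transcriptional co-activators that act upstream of myogenic factors in head and limb, and Six2 is a homeobox factor. Eya1 was at 166 to 222 CPM in members and 47.5 to 78.4 CPM in the others (ratio 3.20), Eya4 at 194 to 289 against 36.8 to 51.0 CPM (ratio 5.08), and Six2 at 18.2 to 56.1 against 4.39 to 14.1 CPM (ratio 4.36). The 3 genes were higher in 6 of 6 libraries and their ranges did not overlap. Eya2 was at 13 against 7.19 CPM, within 2-fold. The Ebf factors followed, with Ebf2 at 90.6 against 29.4 CPM (ratio 3.08), Ebf1 at 244 against 116 CPM (ratio 2.09) and Ebf3 at 111 against 62.1 CPM (ratio 1.79). Ebf1 was within 2-fold with hemoglobin-rich barcodes left out (log2 ratio 0.95). Irx3, an Iroquois factor, was at 51.7 against 21.8 CPM. In the myogenic barcodes described below, Eya1 was at 291 CPM, Eya4 at 249 CPM and Ebf1 at 316 CPM. Members were higher than these in 0, 1 and 1 of 6 libraries. Ebf3 was at 64.1 CPM there, with members higher in 6 of 6 libraries. In the Tbx5-positive barcodes, also described below, Eya1, Eya4 and Ebf1 were at 21.3, 46.0 and 101 CPM.

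Gata4, a zinc finger factor of heart and splanchnic mesoderm, was at 1.86, 7.62 and 12.6 CPM in the lowest, median and highest library of members and at 46.4 to 75.6 CPM in the others (ratio 0.125). Tbx20 was at 25.4 against 72.9 CPM (ratio 0.349) and Tbx18, a factor of the venous pole and epicardium, at 8.01 against 26.4 CPM (ratio 0.303). These 3 were lower in 6 of 6 libraries. Nkx2-5, the homeobox factor of heart progenitors and muscle, was at 15.2 against 25.4 CPM, within 2-fold. Gata6, Hand2 and Mef2c were at ratios of 1.04, 1.39 and 1.47.

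Hand1, a bHLH factor of the outflow tract and left ventricle, differed widely between libraries. It was at 117, 83.1, 67.0, 33.8, 44.0 and 21.4 CPM in members of libraries 1 to 6. In the other barcodes it was at 20.2 to 36.9 CPM, and the summed ratio was 2.28. Members were higher in 5 of 6 libraries. Without library 1 the log2 ratio of Hand1 was 0.98, just within 2-fold. Libraries 1 to 3 were each above libraries 4 to 6, and libraries 4 and 6 lay inside the range of the other barcodes.

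Outflow tract genes made a list of 16, of which 13 passed the minimum and 10 had a ratio above 1. Of the 13, 3 were at least 2-fold higher (23.1%, beside 2.21% of all genes) and 0 were lower (2.90% of all genes), with a median log2 ratio of 0.71. None of the 3 passed through members alone. Rgs5, a regulator of G protein signalling, was at 94.7 to 138 CPM in members and 26.6 to 40.4 CPM in the others (ratio 3.61). Nrp2, a semaphorin co-receptor, was at 109 to 144 against 36.2 to 46.6 CPM (ratio 2.87), and Cxcl12, a chemokine, at 101 to 181 against 50.6 to 67.8 CPM (ratio 2.20). Each was higher in 6 of 6 libraries with no overlap, and Cxcl12 was within 2-fold without library 1. Sema3c, a semaphorin that guides neural crest into the outflow tract, was at 72.9 against 38.8 CPM (ratio 1.88). Fgf8, a ligand of the anterior field and of pharyngeal epithelium, was at 10.4 against 18.9 CPM and lower in 6 of 6 libraries, within 2-fold.

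Of the 12 posterior second heart field genes 10 passed the minimum, 0 at least 2-fold higher and 3 lower (beside 2.90% of all genes), with a median log2 ratio of -0.27. All 3 passed through the other barcodes alone. Wnt2, a ligand of the venous pole, was at 1.45 to 5.47 CPM in members and 27.7 to 38.4 CPM in the others (ratio 0.0910), and Gata4 and Tbx18 were the other two. Osr1 was at 19.6 against 21.6 CPM and Aldh1a2, which makes retinoic acid, at 24.6 against 18.8 CPM. Foxf1, a forkhead factor of splanchnic mesoderm, was at 37.8 to 78.5 against 14.1 to 71.7 CPM, higher in 6 of 6 libraries at a ratio of 1.55 with overlapping ranges. The limit on Tbx5 leaves out cells of that field, and its part in these levels was not tested.

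Of 16 listed branchiomeric muscle progenitor genes 8 passed the minimum, of which 6 were at least 2-fold higher (beside 2.21% of all genes) and 0 lower, with a median log2 ratio of 1.58. Lhx2 (37.8 against 3.22 CPM) and Msc (14.9 against 5.12 CPM) passed through the members alone and so had to be higher, and the median is a description of the genes that passed. Tcf21, Msc, Lhx2, Ebf2 and Eya1 were among the 6 and also stand in the list of transcription factors. Des, a muscle intermediate filament gene, was at 82.2 against 108 CPM. The later muscle genes stayed below the minimum, with Myog at 0.398 and Myf6 at 0.321 CPM in members, and Pax7 and Met were at 0.514 and 1.71 CPM.

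In the FGF list 1 of 14 genes tested was at least 2-fold higher (7.14%, beside 2.21% of all genes) and 0 lower (median log2 0.39). It was Fgf9, a secreted ligand, at 21.0 to 29.1 CPM in members and 6.08 to 7.57 CPM in the others (ratio 3.56), and it passed through members alone. In barcodes kept out by Epcam alone Fgf9 was at 28.2 CPM, and members were higher in 0 of 6 libraries. Fgf9 was at 18.2 CPM in myogenic barcodes and 8.73 CPM in Tbx5-positive barcodes. The feedback and target genes Dusp6, Etv4 and Spry2 were at ratios of 1.58, 1.67 and 1.32, each higher in 6 of 6 libraries. Beside the myogenic barcodes described below, Dusp6 and Etv4 were lower in members, at 48.0 against 87.1 CPM and 18.9 against 43.5 CPM. Beside the Tbx5-positive barcodes, also described below, they were higher, at 48.0 against 20.1 CPM and 18.9 against 5.65 CPM. Etv5 was at 16.8 against 14.2 CPM, and Spry1 at 21.1 against 21.7 CPM, higher in 3 of 6 libraries. In the BMP list 1 of 22 was higher (4.55%), the antagonist Grem1, which passed through members alone, and 2 were lower (9.09%, beside 2.90% of all genes), the targets Msx1 (18.1 against 37.4 CPM) and Msx2 (10.7 against 22.7 CPM), with a median of 0.37. Without library 4, Msx1 and Msx2 were within 2-fold, at log2 ratios of -0.95 and -0.92, and without library 6 Msx1 was at -0.97. The ligand Bmp4 was at 78.5 against 50.1 CPM and the targets Id1, Id2 and Id3 at ratios of 1.47, 1.75 and 1.32.

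In the Wnt list 0 of 28 genes were at least 2-fold higher and 4 were lower (14.3%, beside 2.90% of all genes), with a median of 0.17. These were the ligands Wnt2, Wnt4 (6.75 against 23.4 CPM) and Wnt6 (0.566 against 20.2 CPM) and the antagonist Dkk2 (5.01 against 13.7 CPM). All 4 passed the minimum through the other barcodes alone and could only be lower. Wnt5a, a ligand of cell polarity signalling needed in the anterior field, was at 59.9 against 38.1 CPM. Axin2, a target of canonical signalling, was at 10.2 against 11.9 CPM and lower in 6 of 6 libraries.

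In the hedgehog list 2 of 10 genes were higher (beside 2.21% of all genes) and 0 lower, with a median of 0.65. Boc, a co-receptor, was at 36.1 to 49.3 CPM in members and 13.5 to 16.4 CPM in the others (ratio 2.90). Gli1, a target and effector, was at 9.52 to 14.7 against 4.72 to 6.39 CPM (ratio 2.21), and passed through members alone. Their ranges did not overlap. In the Tbx5-positive barcodes described below, Gli1 was at 15.6 CPM, and members were higher in 2 of 6 libraries. Gli1 was at 9.16 CPM in myogenic barcodes and 6.64 CPM in barcodes kept out by Epcam alone. Ptch1, the receptor and also a target, was at 163 against 92.4 CPM (ratio 1.77). The ligand Shh was at 0.0514 CPM in members and 8.16 CPM in the others. In the Notch list 0 of 6 genes passed in either direction, with the ligand Jag1 at 39.3 against 20.9 CPM (ratio 1.88).

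Retinoic acid is made from vitamin A by retinol and retinal dehydrogenases and broken down by Cyp26 enzymes. In its list 3 of 12 genes were higher (beside 2.21% of all genes) and 1 lower (8.33%, beside 2.90%), with a median of 0.32. Of these, Stra6 and Rxrg passed through members alone and Aldh1a1 through the other barcodes alone. Rdh10, the retinol dehydrogenase, was at 20.2, 42.9 and 51.9 CPM in the lowest, median and highest library of members and at 11 to 15.3 CPM in the others (ratio 3.00). Stra6, the retinol importer, was at 13.3 to 16 against 3.57 to 7.48 CPM (ratio 2.58). Rxrg, a retinoid X receptor of muscle and nerve, was at 12 to 16.7 against 1.26 to 1.59 CPM (ratio 9.96). The ranges of all 3 were apart. Aldh1a1 was at 0.501 against 10.2 CPM.

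Genes of glucose handling and hypoxia were examined because the dams differ in glycemia. Of 22 listed genes 21 were matched and tested, 0 at least 2-fold higher and 4 lower (19.0%, beside 2.90% of all genes), with a median log2 ratio of -0.27 against 0.10 for all genes. Of the 4, Slc2a3 and Pfkp passed through the other barcodes alone. Slc2a1, the main glucose transporter of the early embryo, was at 51.2 to 55.7 CPM in members and 103 to 145 CPM in the others (ratio 0.432). Slc2a3, a neuronal type transporter, was at 6.93 to 9.17 against 25.7 to 44.4 CPM (ratio 0.235), the hexokinase gene Hk1 at 10.6 against 24.8 CPM and the phosphofructokinase gene Pfkp at 3.08 against 17.8 CPM. The 4 genes were lower in 6 of 6 libraries without overlap. Hk1 was not lower in members beside the comparison sets described below. It was at 9.98 CPM in myogenic barcodes, 7.34 CPM in Tbx5-positive barcodes and 7.41 CPM in barcodes kept out by Epcam alone. The later enzymes of glycolysis were within 2-fold, such as Ldha at a ratio of 0.765 and Pkm at 1.07. Between libraries of members, Slc2a1 spanned a narrow range, but no library is tied to a glycemic state.

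In the lists of S phase and of G2 and M phase genes 0 of 20 genes each were past 2-fold in either direction, with medians of 0.10 and 0.12. In the matrix and adhesion list 1 of 24 genes was higher (4.17%, beside 2.21% of all genes), Cdh11, a mesenchymal cadherin, at 299 to 387 against 140 to 189 CPM. It stood close to the 2-fold line (ratio 2.06) and below it with hemoglobin-rich barcodes left out (log2 ratio 0.93). In the same list 3 genes were lower (12.5%, beside 2.90% of all genes), Hapln1 (ratio 0.415), Dcn (0.301) and Itga4 (0.223). Dcn and Itga4 passed through the other barcodes alone.

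Markers of other cell types were read in the same sums. The 7 cardiomyocyte markers outside the rule were all at least 2-fold lower (beside 2.90% of all genes), 3 of them passing the minimum through the other barcodes alone, with summed levels of 123 to 193 CPM in members over libraries and 3096 to 5514 CPM in the others. Of 9 endoderm markers outside the rule 5 passed the minimum and 4 were lower (beside 2.90% of all genes), 3 of them passing through the other barcodes alone, with sums of 88.1 to 163 against 307 to 388 CPM. Foxa2, Nkx2-1 and Shh were at 0.0771, 0.0900 and 0.0514 CPM in members. The limits on Tnnt2 and Epcam take out heart muscle and epithelial cells, so low levels of these markers had to follow and are a description. The 8 erythroid markers were lower over all barcodes, but with hemoglobin-rich barcodes left out 0 of 6 tested were lower and 1 was higher. Krt5 and Ptprc, markers of surface ectoderm and blood leukocytes, were at 0 counts in members, which allows up to 0.0386 CPM.

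No neuron or endothelium marker tested was at least 2-fold lower. Summed over 7 genes, neuron markers ranged from 30.4 to 322 CPM in members over libraries and from 44.7 to 90.2 CPM in the others, and 2 of 4 tested genes were at least 2-fold higher (beside 2.21% of all genes). Endothelium markers summed to 206 to 400 against 115 to 222 CPM, with 2 of 6 genes higher (beside 2.21% of all genes), Kdr and Emcn. With hemoglobin-rich barcodes left out 0 of the 6 were higher, and with totals taken without hemoglobin genes 1 was. Kdr was within 2-fold without library 2, 3 or 6, and Emcn without library 3 or 6 (log2 ratios 0.91 to 0.98). Subclusters 9 and 12, described below, held much of this RNA. Without subclusters 9, 11 and 12, 0 of 6 endothelium markers were higher and 5 were lower. Of 3 neuron markers tested 0 were higher and 1 was lower. Subclusters 9 and 12 carried these markers, so a fall without them had to follow and is a description. Some neuron markers were still above the other barcodes without subclusters 9, 11 and 12. Elavl4 was at 16.9 against 11.5 CPM and Dcx at 6.52 against 2.85 CPM, each in 6 of 6 libraries. In subclusters 2 and 8, Elavl4, Stmn2 and Dcx were at least 2-fold above the other barcodes. The count of cardiopharyngeal factors was 12 higher and 3 lower of 34 without subclusters 9, 11 and 12, and the muscle progenitor count was 6 of 8 as before.

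Among themselves the members split into 12 subclusters of 29 to 390 cells. They were clustered on 2000 variable genes without the rule genes, cell cycle lists and sex-linked genes, so the leading genes of a subcluster define it and are given as a description. The smallest held 1.18% of the members and the largest 15.8%. Levels below are CPM in the subcluster against all other members.

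Subcluster 1 (390 cells, 15.8%) had high levels of listed outflow and cardiac factors, and genes of mesothelium among its leading genes. Nkx2-5 was at 51.7 CPM there and Hand2 at 219 CPM, Gata6 at 186 CPM, Rgs5 at 317 CPM and Sema3c at 158 CPM. Its leading genes held Mylk3, a myosin kinase of heart muscle, at 79.2 against 3.79 CPM and Smyd1, a muscle methyltransferase, at 80.6 against 4.24 CPM. Upk3b, a gene of mesothelium, was at 84.6 against 2.38 CPM and Wt1, a factor of epicardium and mesothelium, at 29.8 against 1.99 CPM. Both are epicardium markers and stood among the 10 leading genes, which held 0 of the cardiomyocyte markers, so the subcluster was left without a name. The sarcomere gene Tnni1 stood at 275 CPM, while Lhx2 and Msc were at 1.79 and 0.143 CPM.

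Subclusters 3 and 5 had high Lhx2 and Msc, genes of muscle progenitors, with 0 of the branchiomeric muscle markers among the 10 leading genes of either. Subcluster 3 (336 cells) had Tcf21 at 238 CPM, Msc at 50.5 CPM, Lhx2 at 148 CPM, Tlx1 at 457 CPM and Eya4 at 597 CPM. Its leading genes included the homeobox gene Meox2, a paraxial mesoderm marker, at 72.3 against 3.24 CPM and the netrin receptor gene Unc5d at 165 against 7.72 CPM. Subcluster 5 (210 cells) had Lhx2 at 205 CPM and Msc at 79.6 CPM but Tlx1 at 19.4 CPM. It was led by Emx2, a homeobox factor, at 115 against 1.96 CPM, Runx1 at 131 against 4.06 CPM and Nr5a2 at 98.7 against 3.69 CPM. It also had the highest Isl1 (461 CPM), Tbx1 (220 CPM) and Fgf10 (141 CPM) among the 12, and 92.4% of its cells held an Fgf10 UMI. Nkx2-5 was at 3.49 CPM in subcluster 3 and 1.07 CPM in subcluster 5.

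Subclusters 2 and 8 had high Tcf21 and Eya1 with low Lhx2. Subcluster 2 (355 cells) had Tcf21 at 198 CPM, Eya1 at 464 CPM, Sema3c at 145 CPM and Lhx2 at 10.0 CPM, and was led by Mybpc1 (146 against 19.7 CPM) and Barhl2 (41.5 against 6.09 CPM). Subcluster 8 (172 cells) had Tcf21 at 210 CPM, Eya1 at 565 CPM and Lhx2 at 4.49 CPM, and was led by Shox2 at 200 against 19.8 CPM. Hoxd3 was among its leading genes too, with Hoxa5 at 36.7 against 6.19 CPM and Hoxb1 at 25.5 CPM. Rdh10 was at 120 CPM in subcluster 2 and 134 CPM in subcluster 8, the highest levels of that gene among the 12. Cells of subcluster 2 held fewer UMIs, at 0.640 of their libraries' median.

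Subcluster 4 (250 cells) was posterior second heart field-like, with 4 of the 5 markers outside the rule at least 2-fold above the other members and 3 of the 5, Osr1, Foxf1 and Aldh1a2, above the other passing barcodes. Aldh1a2 was at 128 against 12 CPM, Foxf1 at 277 CPM, Osr1 at 82.6 CPM and Hoxb1 at 11.5 CPM, beside 7.30 CPM of Hoxb1 in the other passing barcodes. Fendrr, a noncoding RNA next to Foxf1, was at 51.8 against 4.41 CPM and the Wnt agonist Rspo2 at 44.7 against 3.91 CPM. Ptch1 was at 324 CPM, and Nkx2-5 at 30.1 CPM.

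Subcluster 7 (186 cells) was led by contractile genes and Hand1. Acta2 was at 833 against 36.9 CPM, Tagln at 1003 against 58.9 CPM and Cnn1 at 24.9 against 1.22 CPM, which are 3 of the 5 smooth muscle markers. In the other passing barcodes Acta2 stood at 711 CPM, Tagln at 278 CPM and Cnn1 at 29.8 CPM. Of the 5 markers 1, Tagln, was at least 2-fold above those barcodes, and the subcluster was left without a name. Hand1 was at 447 against 25.2 CPM, Rgs5 at 403 CPM and Tbx20 at 158 CPM, while Fgf10 was at 3.60 CPM. It held 14.7%, 8.99%, 7.95%, 3.67%, 5.91% and 3.37% of the members of libraries 1 to 6, which is the order of libraries by Hand1 level given above.

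Subcluster 6 (205 cells) had Prrx1 at 345 CPM and Twist1 at 410 CPM, with Msx1 at 92.9 against 10.6 CPM. It held 4 of 8 neural crest mesenchyme markers outside the rule at 2-fold or more, and it kept Tlx1 at 197 CPM and Hand2 at 155 CPM. It was left without a name.

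Subcluster 10 (111 cells) was led by the enzymes that break down retinoic acid, Cyp26c1 at 35.0 against 0.271 CPM and Cyp26a1 at 78.2 against 4.10 CPM. Foxd1 was at 95.1 against 7.02 CPM and Ebf2 at 402 CPM. Its cells numbered 1, 0, 0, 45, 28 and 37 in libraries 1 to 6, so libraries 1 to 3 each held at most 1 cell. With 0 cells among the 239 members of library 3, a share of up to 1.26% would go unseen, and with 0 of 456 in library 2 up to 0.658%.

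The other 3 subclusters carried markers of other tissues. Subcluster 9 (116 cells) was endothelium-like, with all 6 markers higher, such as Cdh5 at 430 against 0.435 CPM and Emcn at 946 against 0.674 CPM. It also had 6 of 8 erythroid markers at least 2-fold above the other members, and 0 of them above the other passing barcodes. Its median UMI count was 1.47 times that of its libraries, 15.5% of its cells were above the doublet threshold, and 38 cells had a barcode sequence seen in another library. Subcluster 12 (29 cells) was neuron-like with all 7 markers higher, and was led by Tlx3 (427 against 0.104 CPM) and Dbh (98.5 against 0.0391 CPM), genes of autonomic neurons. Of its cells 10.3% were above the doublet threshold. Subcluster 11 (101 cells) was led by hemoglobin genes, such as Hba-x at 18445 against 134 CPM, at 0.380 of its libraries' median UMIs, and was left without a name. Its cells still had Lhx2 at 82.6 CPM and Tcf21 at 119 CPM. Without these 3 subclusters 2215 members remained, or 6.16% of passing barcodes, and library 3 was again the lowest at 4.34%.

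**Figure D3:**
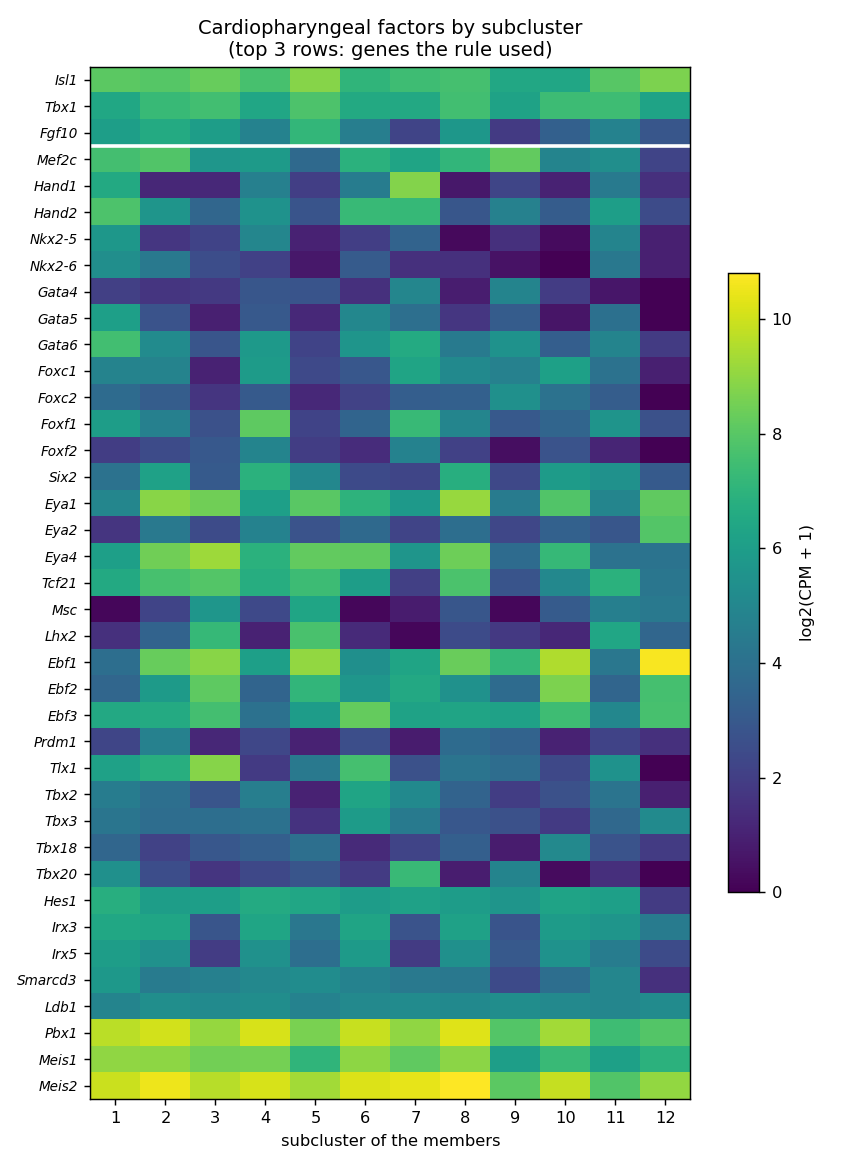
Level of the rule genes Isl1, Tbx1 and Fgf10 and of listed cardiopharyngeal factors (rows) in the 12 subclusters (columns), as log2 of CPM plus 1. Subcluster 1 is bright for Hand2 (219 CPM) and Gata6 (186 CPM), and subclusters 3 and 5 for Lhx2 (148 and 205 CPM) and Msc (50.5 and 79.6 CPM).

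**Figure D4:**
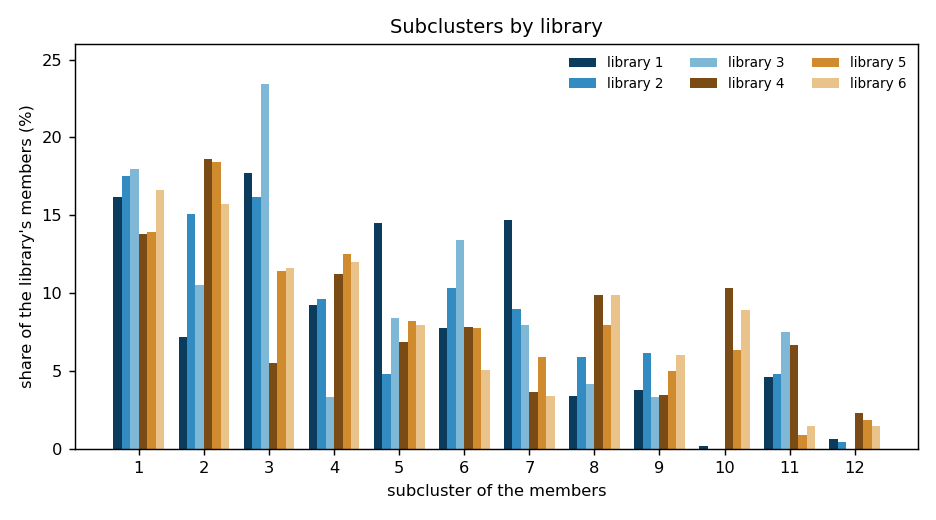
Share of each library's members (y axis, percent) in each of the 12 subclusters (x axis), 1 bar per library. Subcluster 10 holds 10.3%, 6.36% and 8.92% of members in libraries 4, 5 and 6 and 0.211%, 0% and 0% in libraries 1, 2 and 3.

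Members were also split by 2 fixed counts in single cells. With at least 3 UMIs over Tcf21, Msc and Lhx2 as the muscle side and at least 2 of Nkx2-5 as the cardiac side, 1304 members (53.0%) were on the muscle side only and 117 (4.75%) on the cardiac side only. Another 80 (3.25%) met both and 960 (39.0%) neither. Tcf21 is also an epicardium marker, so the muscle side is only the name of that limit. With the cells that met both included, 191 of 390 cells of subcluster 1 and 137 of 250 of subcluster 4 met it. The muscle side ranged from 48.0% in library 1 to 61.9% in library 3, and the cardiac side from 2.75% in library 4 to 7.37% in library 1. In cells thinned to 5000 UMIs the 4 shares were 13.1%, 1.63%, 0.0406% and 85.2%, so they depend on depth.

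Genes outside this split differed between its sides. Hand1 was at 224 CPM in the cardiac side and 7.23 CPM in the muscle side, Rgs5 at 428 against 55.4 CPM, Hand2 at 203 against 50.8 CPM and Gata6 at 161 against 42.1 CPM. Conversely, Eya4 was at 55.5 CPM in the cardiac side and 308 CPM in the muscle side and Tlx1 at 30.4 against 141 CPM. The 80 cells that met both had Hand2 at 209 CPM, Rgs5 at 301 CPM and Bmp4 at 212 CPM, with Eya1 at 23.3 CPM. Bmp4 was at 128 CPM in the cardiac side and 77.5 CPM in the muscle side, and Eya1 at 20 against 283 CPM.

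Beside 369 myogenic barcodes, 414 of 9052 genes (4.57%) were at least 2-fold higher in members and 138 (1.52%) lower. These barcodes held at least 2 UMIs over Myf5, Myod1 and Musk and met the members' limits on Epcam and the Dlx genes. No condition was set on Isl1, Tbx1, Tbx5 or Tnnt2, so other muscle cells can be among them, and 232 of them met every other condition of the rule. Members are limited in the genes that chose this set, so genes that go with those had to differ. Tcf21 differed by no more than counting error, at 114 CPM in members and 117 CPM in myogenic barcodes (ratio 0.974, interval 0.925 to 1.03), and Ebf2 was at 90.6 against 84.4 CPM. Lhx2 was at 37.8 against 140 CPM. The leading genes Grem1 (20.7 against 34.7 CPM), Chrdl1 (24.7 against 45.3 CPM) and Cpne4 (41.1 against 89.2 CPM) were higher in members in 0 of 6 libraries. Not all leading genes went that way, with Cntn1 at 20.9 against 5.09 CPM. Met, a receptor of migrating muscle progenitors, was at 1.71 against 22.4 CPM. In the other direction stood Hand1 at 61.3 against 2.99 CPM, Rgs5 at 116 against 8.01 CPM and Hand2 at 82.4 CPM against 8.82, each higher in members in 6 of 6 libraries.

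Beside 983 Isl1-positive barcodes with at least 2 UMIs of Tbx5, 277 of 9159 genes (3.02%) were at least 2-fold higher in members and 197 (2.15%) lower. These barcodes also met the members' limits on Tnnt2, Epcam and the Dlx genes. Tbx5 chose this set and is limited in members, so genes that go with Tbx5 had to be lower in members and are a description. Lhx2 was at 37.8 against 1.72 CPM and Tlx1 at 98.5 against 10.8 CPM. Lower in members were Wnt2 at 2.93 against 161 CPM, Gata4 at 7.61 against 135 CPM, Osr1 at 19.6 against 150 CPM and Foxf1 at 63.2 against 279 CPM. For each of these 6 genes, all 6 libraries differed in that direction. Msc was at 14.9 against 19.6 CPM, higher in members in 3 of 6 libraries.

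Beside the 1836 barcodes that only Epcam kept out, 550 of 9460 genes (5.81%) were at least 2-fold higher in members and 540 (5.71%) lower. Epcam chose this set, so genes that go with Epcam had to be lower in members and are a description. These barcodes carried pharyngeal epithelium genes, with Pax9 at 126 CPM against 2.26 CPM in members, Krt8 at 272 against 24.7 CPM and Fgf8 at 136 against 10.4 CPM. Eya1 was close in both, at 194 CPM in members and 173 CPM in these barcodes. Tcf21 was at 114 against 8.15 CPM, and the heart field factor Hand2 stood at 82.4 CPM against 12.3.

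**Figure D5:**
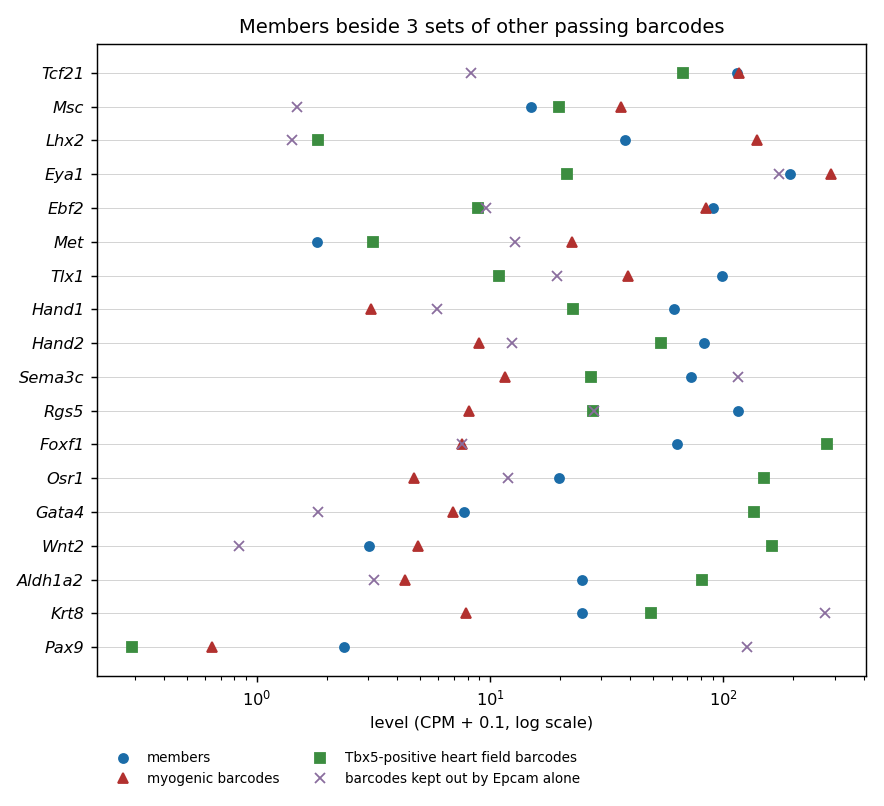
Level (x axis, CPM plus 0.1, log scale) of listed genes in members and in the 3 comparison sets. Members sit beside the myogenic barcodes for Tcf21 (114 against 117 CPM) and apart from them for Hand1 (61.3 against 2.99 CPM), and apart from the Tbx5-positive barcodes for Wnt2 (2.93 against 161 CPM).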

How the data were processed

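Single-cell 3′ RNA was measured with the 10x Genomics version 3 kit in 6 samples. The labels' descriptions name a chromatin assay, but titles, library source and kit name RNA, and the values were read as RNA. The authors deposited 1 matrix of raw UMI counts per gene and barcode for all samples, and per the file headers the software was Cell Ranger 5.0.0. The submitters' processing notes name mm10, CASAVA 1.8 and Seurat 4, with no role given. Clustering and cell names by the authors were not used here. No column ties a library to a sample, so the planned edgeR test of STZ against vehicle was not run.

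Counts were summed over cells and divided by their total (77802712 UMIs in members, 1233144276 in others) to give CPM. Genes at 10 CPM or more in either set were compared, and called at a 2-fold ratio. Ratios have exact conditional 95% intervals, CPM exact Poisson and shares Clopper-Pearson intervals, all for counting error only. Shares of cells with a UMI were also read in cells thinned to 5000 UMIs, which left out 4 other barcodes and 0 members. Subclusters came from the Leiden method (leidenalg 0.10.2, resolution 0.5, 15 neighbours, 20 principal components of 2000 variable genes). Doublets were scored per library against 2 simulated doublets per barcode and kept in the main results. The symbol Aldoa stands for more than 1 identifier in the gene list and was left out.

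Named genes were the rule genes, the fixed lists, the 20 highest and 10 lowest ratios among genes at 20 CPM or more with the same direction in every library, and the 8 leading genes of each subcluster. Some genes that met this rule are not reported here. The members, lists and markers were chosen with earlier results of these data known. The ratio and its interval were tested on simulated data. Python 3.11.15, numpy 2.4.6 and scipy 1.17.1 were used.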

Additional observations from a re-analysis of the deposited data

How the results depend on the processing

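No paired analysis was possible because no file used here ties a library to a sample and its replicate number. The share of members, 6.84% of passing barcodes, was 5.74% with 1000 detected genes and 20% mitochondrial UMIs as limits, 7.38% with a sum of at least 3 UMIs and 5.72% with at least 6. It was 1.40% when the rule was read in cells thinned to 5000 UMIs, 6.16% without subclusters 9, 11 and 12, and 6.69 to 7.15% with 1 library left out. The number of genes at least 2-fold lower was 402 with a minimum of 5 CPM and 165 with 20 CPM. The number at least 2-fold higher was 155 against barcodes in the members' range of UMIs and 165 with hemoglobin-rich barcodes left out. Thinning moved the shares on the muscle side, the cardiac side, both and neither to 13.1%, 1.63%, 0.0406% and 85.2%. The subclusters numbered 11 to 16 over resolutions, libraries left out and doublets removed, so their borders are not firm.

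Of 97 named genes under 19 settings, 9 values changed sign and 46 values, of 20 genes, were no longer past 2-fold. Hemoglobin-rich barcodes were left out of the other barcodes alone, with all members kept, as an alternative chosen after seeing the data. The log2 ratio of Hba-x was then 0.00, of Hba-a1 0.14, of Hba-a2 0.19, of Hbb-y 0.00, of Hbb-bs 0.87 and of Hbb-bt 1.56. Without subclusters 9, 11 and 12, also chosen after seeing the data, the log2 ratio of Stmn2 was -0.68, of Kdr -0.13 and of Emcn -5.82. Other named genes that were within 2-fold under a setting include Msx1 with a sum of at least 3 UMIs (log2 ratio -0.86), Cxcl12 and Hk1 in thinned cells (0.86 and -0.97), and Hand1, Ebf1, Gli1 and Cdh11 against barcodes of the members' depth (1.00, 0.96, 0.91 and 0.85). The cause was not tested.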

Other observations

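Several levels in members, and some in the other barcodes, were apart between libraries 1 to 3 and libraries 4 to 6. The labels place these libraries in no group. Subcluster 10, with Cyp26c1 and Cyp26a1, held 1, 0, 0, 45, 28 and 37 cells of libraries 1 to 6. Subcluster 7, with Hand1 and Acta2, held 14.7%, 8.99% and 7.95% of members in libraries 1 to 3 and 3.67%, 5.91% and 3.37% in libraries 4 to 6. Subcluster 8, with Shox2, Hoxd3 and Hoxa5, held 3.37%, 5.92% and 4.18% of members in libraries 1 to 3 and 9.86%, 7.95% and 9.88% in libraries 4 to 6. Subcluster 12, with Tlx3, held 3, 2, 0, 10, 8 and 6 cells. The split was also seen in the other barcodes for some rule genes. There Epcam was at 94.2 to 115 CPM in libraries 1 to 3 and 134 to 153 CPM in libraries 4 to 6. Tbx1 was at 13.3 to 19.9 against 24.4 to 31.7 CPM, and Fgf10 at 6.57 to 7.71 against 9.33 to 11.5 CPM. Tbx5 was at 17.2 to 22.9 against 23.9 to 25.3 CPM. Myod1, near the floor, was apart in the other direction, at 0.101 to 0.282 against 0.0273 to 0.0738 CPM. Isl1, Tnnt2, Dlx1, Dlx2, Myf5 and Musk were not apart in this way. The share of all genes that were apart in this way is not given here, so these levels are a description. What these libraries share is not given in the sources used here.

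Members in the hemoglobin-high subcluster 11 numbered 22, 22, 18, 29, 4 and 6 in libraries 1 to 6. The median hemoglobin level over all members was 103, 68.3, 162, 77.5, 93.9 and 87.1 CPM in the same order, and in the other barcodes it was 71.7 to 171 CPM.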
